A study of Homo sapiens with 2 samples.

Results

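The genes described here encode the machinery that carries new secretory and membrane proteins into the endoplasmic reticulum (ER) and makes their first modifications: the SEC61 channel with SEC63, the translocon-associated TRAP and TRAM proteins with SERP1, the signal recognition particle (SRP) with its receptor, signal peptidase and oligosaccharyltransferase (OST). The members were 35 genes chosen by symbol, with earlier results of these data known, so their shares beside all genes are descriptions. All 35 were found among the 21115 genes of the table. RNA was measured in HCT116, a long-established cell line from a human colorectal carcinoma, after 8 h in 1 µM CB-5083, which inhibits the ATPase p97 (VCP), or in its solvent, DMSO. There was 1 library of mRNA for each treatment, so none of the differences below has a replicate check and no test between treatments was possible.

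A protein bound for the secretory pathway carries a signal sequence that SRP binds as it leaves the ribosome. SRP docks the ribosome at its receptor on the ER membrane, and the chain enters the SEC61 channel, helped for many substrates by TRAP, TRAM and the SEC62 and SEC63 proteins. Signal peptidase then removes the signal sequence, and OST transfers a preassembled glycan to asparagines of the entering chain. Many of these genes are known as targets of the unfolded protein response, the transcriptional programme of ER stress.

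Depth was 29273701 estimated counts for DMSO and 31997662 for CB-5083, and 17310 and 16729 genes lay above 0. Of 8 markers of colon epithelium, EPCAM, CDH1, KRT8, KRT18 and KRT19 were abundant in both libraries, CDX2 was at 3.76 CPM with DMSO, KRT20 at 1.37 CPM and VIL1 at 0.0303 CPM. The sum of the 8 was 1122 CPM with DMSO against 1671 CPM with CB-5083. CDH1 was called higher, at 66.7 against 243 CPM (3.65-fold, 3.48 to 3.83), and KRT18 was at 292 against 495 CPM (1.69-fold, 1.65 to 1.74). The part of these markers in the results below was not tested. Of 9 markers of blood, fibroblasts and endothelium 5 were at 0 in both libraries. The summed level of the 9 was 2.70 CPM (DMSO) against 3.60 CPM (CB-5083), most of it from COL1A1, at 2.52 against 3.48 CPM. Levels are given in CPM, counts scaled to a common library size by TMM. A gene is called higher or lower below where log2 of (CB-5083 + 1) over (DMSO + 1) was at least 1 in size and the gene reached 5 CPM in 1 library. Folds are without that pseudocount, with a 95% exact interval that covers counting error only. In such bulk RNA, a change in the number of cells that express a gene and a change in RNA per cell cannot be told apart.

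Most of these genes had more RNA with CB-5083 than with DMSO, to very different degrees. Of the 34 members that reached 5 CPM, 11 were higher (32.4%, against 7.22% of all 9543 genes that reached it) and 0 lower (against 4.91%), while 23 were neither. Their median log2 ratio was 0.68, where that of all genes was 0.09. Of the 34 ratios 32 were above 0, as were 57.4% of those of all genes. The 11 were SEC61A1, SEC63, SSR1, TRAM1, SERP1, SRP19, SRPRB, SEC11C, STT3A, OSTC and MAGT1, so that each of the 5 complexes held at least 1. Together the 35 genes took 0.638% of the DMSO library (95% exact interval 0.635 to 0.641) and 0.906% of the CB-5083 library (0.903 to 0.910). These are shares of the library totals, without TMM factors. In TMM-scaled CPM the 35 genes summed to 5667 with DMSO against 10205 with CB-5083. The number of higher members depended on the scaling. With library totals 4 of 34 were higher, SEC63, SERP1, SEC11C and MAGT1 (11.8%, against 3.86% of all genes). Then 27 of the members' ratios were above 0, where the median log2 ratio of all genes was -0.25. The gap between the median of the members and that of all genes was 0.58 on the log2 scale with either. Such a change of scaling shifts all ratios by nearly the same amount, so this gap could hardly differ.

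**Figure D1:**
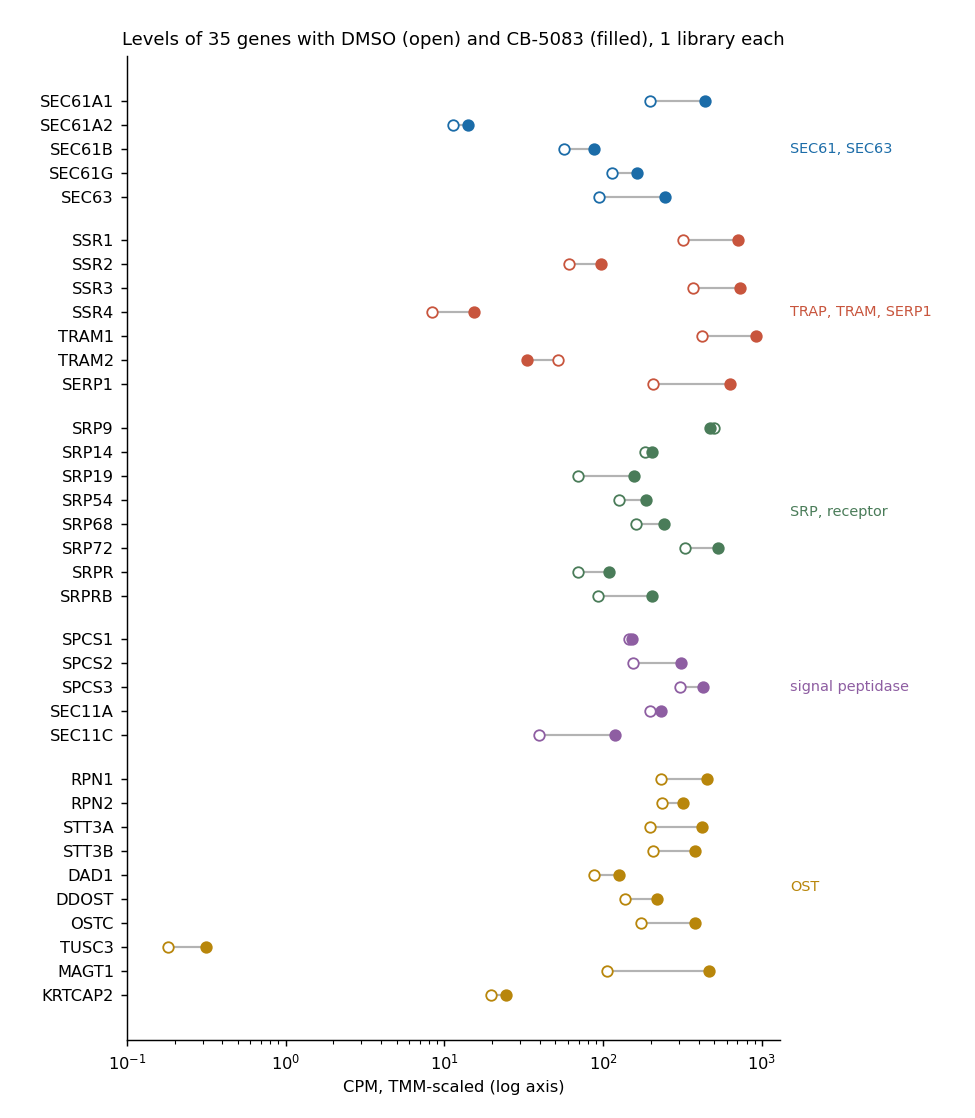
Level of each of the 35 genes in the DMSO library (open) and the CB-5083 library (filled), in TMM-scaled CPM on a log axis, grouped by complex, with 1 library per treatment. MAGT1 moved from 105 to 462 CPM, TRAM2 from 51.7 to 33.4 CPM, and TUSC3 lay under 1 CPM in both.

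The promoters of these genes were searched for the elements through which ER stress factors are known to act. RefSeq promoters (GRCh38.p14, 250 bases before to 50 after the start) matched 29 of the 35 members. For each of the 29 only the first listed promoter was searched, so any other start of a member was not. The shares of all promoters count every listed promoter. The ER stress response element was searched as CCAAT, any 9 bases, CCACG on both strands, a spelling found in 0.0769% of all 35116 promoters. SERP1 was the 1 member that held it, 232 bases before its start. With at most 1 mismatch in the 10 fixed letters, a search added after the data were seen, 1.55% of all promoters and still only SERP1 among the 29 held it. The core site of ATF6 and XBP1, TGACGTG, was in 1.97% of all promoters and in 1 member, SRP19. The CCAAT box alone, which is also part of the longer element, was in 16 of the 29 (34.6% of all promoters), in 4 of the 10 higher members with a promoter and in 12 of the 19 that were neither. The second ER stress element, ATTGG, 1 base, CCACG, and the amino acid response site TGATGCAA were in none of the 29. A match describes letters in these windows and no binding.

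The stretches below show these matches, each upstream of the start and read along the gene, with the matched letters in capitals. The first has the ER stress element on the reverse strand and the next the reversed ATF6 and XBP1 core. The last pair are the member with the highest ratio and a member whose level hardly differed, which both carry several CCAAT boxes, written CCAAT or, reversed, ATTGG. SERP1 lies on chr3:150546690-150546746 (minus strand), SRP19 on chr5:112861156-112861202 (plus strand), MAGT1 on chrX:77895485-77895666 (minus strand) and SRP9 on chr1:225777660-225777819 (plus strand), all in GRCh38.p14.
SERP1: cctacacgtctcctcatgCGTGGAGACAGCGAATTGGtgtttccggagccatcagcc
SRP19: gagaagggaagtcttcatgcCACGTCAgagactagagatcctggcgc
MAGT1: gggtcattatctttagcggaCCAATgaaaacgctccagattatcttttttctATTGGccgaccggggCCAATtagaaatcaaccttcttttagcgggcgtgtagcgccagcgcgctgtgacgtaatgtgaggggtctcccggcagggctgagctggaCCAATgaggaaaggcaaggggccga
SRP9: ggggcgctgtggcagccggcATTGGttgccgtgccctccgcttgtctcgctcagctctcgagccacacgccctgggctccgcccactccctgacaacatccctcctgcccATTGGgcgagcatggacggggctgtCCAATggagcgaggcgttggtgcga

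Within SRP, the particle that brings the ribosome to the membrane, the folds of the subunits ranged from 0.947 to 2.25. SRP9 and SRP14, which form the Alu domain that slows translation, were close to their DMSO levels. SRP9 was at 501 CPM (DMSO) against 474 CPM (CB-5083) (0.947-fold, 0.925 to 0.969), and SRP14 at 183 and 202 CPM (1.11-fold, 1.07 to 1.15, but with a log2 ratio below 0 by library totals). The other subunits belong to the S domain, which reads the signal sequence. SRP54, the GTPase that binds the signal sequence, was at 125 against 187 CPM (1.49-fold, 1.43 to 1.56), SRP68 at 161 against 242 CPM (1.51-fold) and SRP72 at 330 against 528 CPM (1.60-fold). SRP19, which helps SRP54 join the particle's RNA, was the only SRP subunit past the threshold, at 69.8 against 157 CPM (2.25-fold, 2.14 to 2.37).

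Of the receptor's subunits, the membrane anchor SRPRB was higher, at 92.4 against 204 CPM (2.21-fold, 2.11 to 2.31). SRPR, the GTPase that SRPRB holds at the membrane, was at 69.9 against 109 CPM (1.56-fold, 1.48 to 1.65) and was not. Over the 8 genes of SRP and its receptor 2 were higher (against 7.22% of all genes), and the median log2 ratio was 0.61. With library totals neither was, at log2 ratios of 0.82 for SRP19 and 0.80 for SRPRB, where 3.86% of all genes were higher.

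The SEC61 channel is built from an alpha subunit, which forms the pore, and the small beta and gamma subunits. SEC61A1, the main pore subunit (chromosome 3, 127771212 to 127790526 in hg19), was at 197 CPM (DMSO) against 436 CPM (CB-5083) (2.21-fold, 2.14 to 2.27). The beta subunit SEC61B was at 56.3 against 88.2 CPM (1.57-fold, 1.47 to 1.66) and the gamma subunit SEC61G at 113 against 163 CPM (1.44-fold, 1.38 to 1.51), so the fold of the pore subunit lay above those of its partners by more than the counting intervals. SEC61A2, the second pore gene, was at 11.4 against 14.1 CPM (1.24-fold, 1.07 to 1.43, with a log2 ratio below 0 by library totals). Its share of the counts of both pore genes was 5.45% with DMSO (4.92 to 6.01) and 3.13% with CB-5083 (2.83 to 3.45). Per transcript length (TPM, length-corrected levels that add to the same sum in each library), the DMSO levels ran from 16.4 TPM for SEC61A2 through 166 TPM for SEC61A1 and 316 TPM for SEC61B to 752 TPM for SEC61G, an order kept with CB-5083.

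SEC63, which recruits the lumenal chaperone HSPA5 to the channel, was at 94.6 against 247 CPM (2.61-fold, 2.50 to 2.72), the highest fold of this group and past the threshold under library totals too (log2 ratio 1.03). HSPA5 itself was at 1282 against 21303 CPM, and VCP, the target of CB-5083, at 148 against 269 CPM. The partner of SEC63 in the channel, SEC62, is no member and was at 167 against 220 CPM (1.32-fold, 1.27 to 1.37).

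Among the proteins that surround the channel, SERP1 (also RAMP4), a small protein bound to the translocon and known to be induced by ER stress, was at 205 CPM (DMSO) against 631 CPM (CB-5083) (3.07-fold, 2.99 to 3.16), second to MAGT1 among all members. Its row spans 150259780 to 150320961 on chromosome 3 (hg19) and overlaps that of EIF2A, which was at 265 against 402 CPM (1.52-fold, 1.48 to 1.56). The library kit was stranded, but the sources do not give whether counting used the strand, and the part of the overlap in the value was not tested. The 4 TRAP subunits, which sit beside the channel and assist weak signal sequences, ranged from 1.60-fold to 2.24-fold. SSR1 was higher, at 318 against 712 CPM (2.24-fold, 2.19 to 2.29). SSR3 was at 366 against 729 CPM (1.99-fold, 1.95 to 2.04), SSR4 at 8.41 against 15.4 CPM (1.84-fold, 1.58 to 2.14) and SSR2 at 61.0 against 97.5 CPM (1.60-fold, 1.51 to 1.69), all short of the threshold, although SSR3 passed it with median-of-ratios scaling (log2 ratio 1.003).

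The TRAM paralogs differed in the sign of their ratios. TRAM1, which contacts signal sequences at the channel, was higher, at 422 against 916 CPM (2.17-fold, 2.12 to 2.21). TRAM2 was at 51.7 CPM (DMSO) against 33.4 CPM (CB-5083), 1.55-fold lower (1.43 to 1.68), and had the lowest ratio of the 34 members; its log2 ratio of -0.62 became -0.95 with library totals and did not reach the threshold in either. TRAM2 took 10.9% of the summed estimated counts of the pair with DMSO (10.4 to 11.4) and 3.52% with CB-5083 (3.30 to 3.74).

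**Figure D2:**
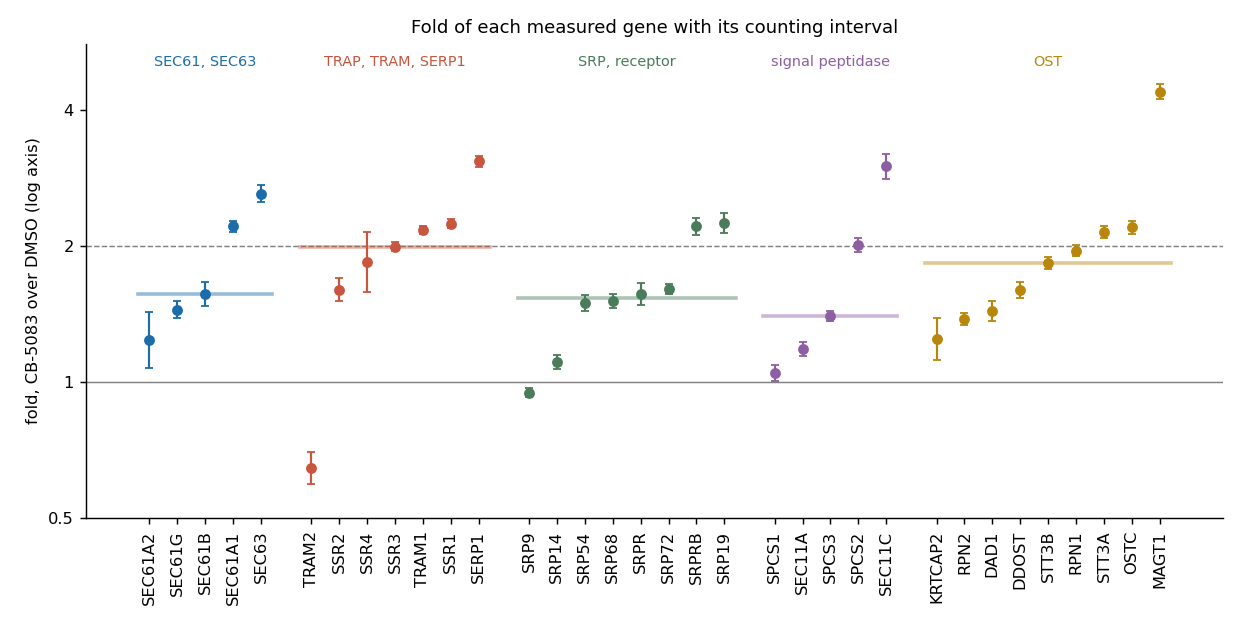
Fold of CB-5083 over DMSO (log axis) for the 34 genes that reached 5 CPM, ordered within each complex, where bars are 95% counting intervals, thick lines the median fold of the complex, and the solid and dashed lines mark folds of 1 and 2. SERP1, SEC11C and MAGT1 stand above the rest of their complexes, and TRAM2 and SRP9 lie below 1.

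Signal peptidase has a catalytic subunit, encoded by SEC11A or SEC11C, and the noncatalytic subunits SPCS1, SPCS2 and SPCS3. SEC11C (chromosome 18, 56807125 to 56826063 in hg19) was at 39.6 CPM (DMSO) against 119 CPM (CB-5083), while SEC11A was at 197 and 233 CPM. The fold was 2.998 for SEC11C (2.81 to 3.20) and 1.18 for SEC11A (1.14 to 1.22), whose log2 ratio was below 0 with library totals. SEC11C therefore took 16.8% of the counts of the pair with DMSO (15.9 to 17.6) and 33.8% with CB-5083 (32.8 to 34.7), and per transcript length 21.7% and 41.3%. A share of a pair does not depend on the scaling between libraries.

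The noncatalytic subunits spread from near 1-fold to the threshold. SPCS2 was at 153 against 308 CPM (2.01-fold, 1.94 to 2.08); with the pseudocount its log2 ratio was 0.9994, just under the threshold, and it counted as higher with a pseudocount of 0.5 CPM. The row of SPCS2 joins its locus to a copy on another chromosome, so its value is uncertain. SPCS3, which the active enzyme needs, was at 304 against 425 CPM (1.40-fold, 1.36 to 1.43), and SPCS1 at 145 against 151 CPM (1.04-fold, 1.002 to 1.09), with a ratio below 0 in the deposited scaling and with library totals. Of the 5 genes 1 was higher, where 7.22% of all genes were. The median log2 ratio was 0.48, the lowest of the 5 complexes, where that of all genes was 0.09.

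OST exists in forms built around 1 of the catalytic subunits STT3A and STT3B. The STT3A form sits at the channel and acts on chains as they enter, and the STT3B form can modify sites that were skipped. STT3A was at 197 against 421 CPM (2.14-fold, 2.08 to 2.21) and STT3B at 206 against 378 CPM (1.83-fold, 1.78 to 1.89). The share of STT3A in the pair was 48.8% with DMSO (47.9 to 49.6) and 52.7% with CB-5083 (52.0 to 53.3). OSTC and KRTCAP2 are subunits of the STT3A form. OSTC was higher, at 173 against 380 CPM (2.20-fold, 2.13 to 2.27), and KRTCAP2 was at 19.8 against 24.6 CPM (1.25-fold, 1.12 to 1.39, with a ratio below 0 by library totals).

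MAGT1, the oxidoreductase subunit of the STT3B form, had the highest ratio of all members. It lies on the X chromosome from 77081862 to 77151065 (hg19) and was at 105 CPM (DMSO) against 462 CPM (CB-5083) (4.38-fold, 4.22 to 4.55), rank 102 from the highest of the 9543 genes. With library totals its log2 ratio was 1.78 and in the deposited scaling 2.04. It was 1 of 2 members, with SERP1, that were at least 3-fold higher (5.88%, against 2.57% of all genes). TUSC3, the alternative to MAGT1 in the same place, had 6 estimated counts in the DMSO library and 9 in the other, 0.182 and 0.317 CPM, and was left out by the filter. TUSC3 made up 0.172% of the counts of the pair with DMSO (0.0633 to 0.375) and 0.0685% with CB-5083 (0.0313 to 0.130), intervals that overlap.

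The subunits that both OST forms share had lower folds than MAGT1. RPN1 was at 231 against 450 CPM (1.95-fold, 1.90 to 2.01), DDOST at 137 against 219 CPM (1.60-fold, 1.54 to 1.66), DAD1 at 88.1 against 126 CPM (1.43-fold, 1.37 to 1.51) and RPN2 at 233 against 321 CPM (1.37-fold, 1.33 to 1.42). None of these passed the threshold. Over the 9 measured OST genes 3 were higher (33.3%, against 7.22% of all genes) and the median log2 ratio was 0.87. Per transcript length OSTC was the most abundant OST member in both libraries, at 492 TPM with DMSO and 843 TPM with CB-5083, and MAGT1 went from the lowest measured OST member, at 80.3 TPM, to 274 TPM, above STT3A at 221 TPM and STT3B at 213 TPM.

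**Figure D3:**
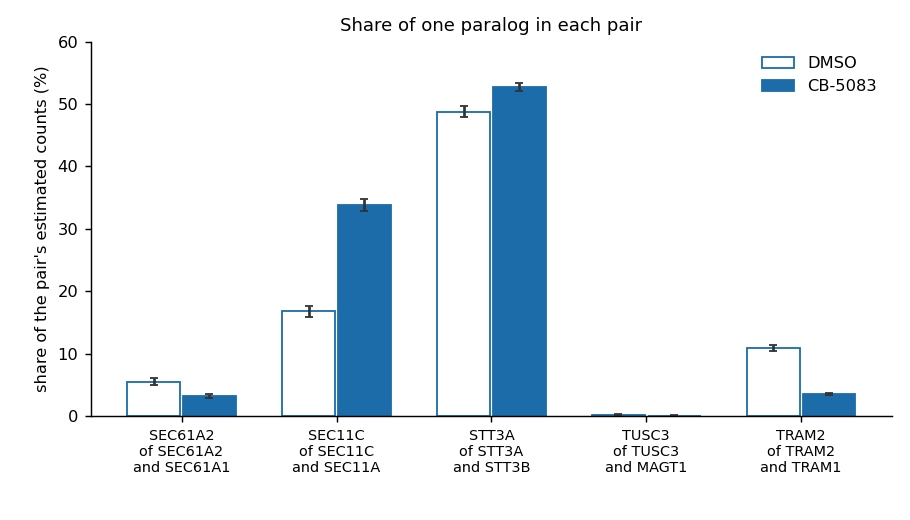
Share of the first-named paralog in the summed estimated counts of its pair (percent), with DMSO (open) and CB-5083 (filled), where bars are 95% exact binomial intervals of counting error. SEC11C went from 16.8% to 33.8% and TRAM2 from 10.9% to 3.52%.

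The members nearest to the threshold were STT3A and TRAM1 on the inside, at log2 ratios of 1.10 and 1.11, and SPCS2, SSR3 and RPN1 on the outside, at 0.9994, 0.99 and 0.96. At a threshold of 1.5-fold, 22 of the 34 were higher (64.7%, against 17.4% of all genes) and 1, TRAM2, was lower. By complex, the TRAP, TRAM and SERP1 group had the highest median log2 ratio, 0.99 with 3 of 7 higher at 2-fold (42.9%, against 7.22% of all genes). OST followed at 0.87, then the SEC61 group at 0.64 with 2 of 5 higher (40.0%), SRP and receptor at 0.61 and signal peptidase at 0.48. The share of the library's estimated counts taken by the TRAP, TRAM and SERP1 group went from 0.161% to 0.278% and that of OST from 0.157% to 0.247%, whereas that of SRP and receptor went from 0.172% to 0.187%. Among the higher members, the rows of SEC61A1 and SRP19 overlap those of RUVBL1, at 120 against 113 CPM, and REEP5, at 161 against 111 CPM.

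**Figure D4:**
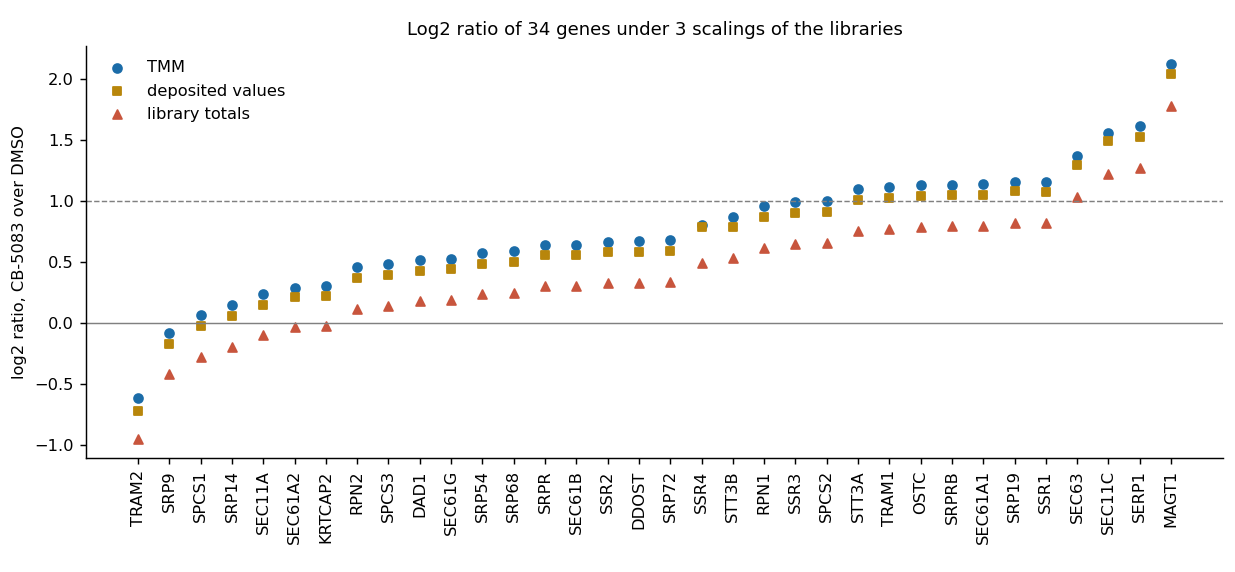
Log2 ratio of CB-5083 over DMSO for the 34 genes, ordered by the TMM value, under TMM scaling (circles), the authors' deposited scaling (squares) and library totals (triangles); the dashed line is the 2-fold threshold. Library totals place 4 genes above the line and TMM 11, in nearly the same order. A change of scaling shifts all ratios nearly alike, and the squares also leave out the pseudocount.

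Other genes of ER import and glycosylation were set beside the members. A list of 72 was drawn up, of which 71 were in the table, 10 under an older symbol, and 65 reached 5 CPM. Of these 6 were higher (9.23%, against the background of 7.22%) and 0 lower (against 4.91%). The median log2 ratio of the 65 was 0.26, where that of all genes was 0.09. The other factors of signal peptide import had 2 of 6 higher (33.3%), with a median of 0.40. All 6 ratios were above 0, as were 57.4% of those of all genes. Of 9 measured genes of the ER membrane protein complex, which inserts membrane helices without SEC61, 0 were higher (median 0.37), and the same was found for 7 of tail-anchor insertion (median 0.01), 8 partners of the channel for multipass proteins (median 0.20), 3 further genes of OST and its surroundings (median 0.29) and 4 of the GPI transamidase, another ER modification enzyme (median 0.04). Lists this short hold too few genes to set a count of 0 against the background. In the ER membrane protein complex EMC4 had the highest ratio, at 77.1 against 126 CPM (1.63-fold, 1.55 to 1.72), ahead of MMGT1 at 89.8 against 123 CPM (1.36-fold) and EMC3 at 10.0 against 13.5 CPM (1.35-fold). UBL4A, a tail-anchor targeting factor, had the lowest ratio of the 65, at 17.9 against 8.73 CPM (2.05-fold lower, 1.77 to 2.39), which the pseudocount brought to a log2 ratio of -0.96; BAG6 and CAMLG, of the same route, were at 58.2 against 73.7 CPM (1.27-fold) and 38.1 against 45.7 CPM. Among the multipass partners CCDC47 was at 351 against 531 CPM (1.51-fold, 1.48 to 1.55), NOMO1 at 99.6 against 128 CPM (1.28-fold) and NCLN at 6.83 against 4.82 CPM (1.42-fold lower, 1.14 to 1.77). The GPI transamidase genes PIGT, PIGS and PIGU lay within 0.950-fold to 1.17-fold. MLEC, a lectin that binds glycans OST has attached, was at 274 against 371 CPM (1.35-fold, 1.31 to 1.39). The small OST subunits OST4 and TMEM258, which are not among the 35 either, were at 38.6 against 41.8 CPM (1.08-fold) and 29.9 against 36.8 CPM (1.23-fold).

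Genes that work with HSPA5 at the channel were among the 6. DNAJC1, a membrane J protein that activates HSPA5, was at 21.9 against 58.5 CPM (2.67-fold, 2.45 to 2.92), and SIL1, its nucleotide exchange factor, at 5.86 against 16.7 CPM (2.85-fold, 2.41 to 3.39). With a pseudocount of 5 CPM the log2 ratio of SIL1 was 0.99997 and it was no longer called higher. The signal peptide peptidase gene HM13 was at 53.7 against 71.3 CPM (1.33-fold, 1.25 to 1.42).

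In the synthesis of the glycan that OST transfers, 3 of the 4 higher genes make its nucleotide sugar. UAP1, which makes UDP-N-acetylglucosamine, was at 105 against 737 CPM (7.01-fold, 6.76 to 7.26). GFPT1, which starts that pathway, was at 134 against 655 CPM (4.88-fold, 4.73 to 5.05), and PGM3 at 94.3 against 241 CPM (2.56-fold, 2.45 to 2.67), while GNPNAT1, which acts between them, was at 132 against 208 CPM (1.58-fold, 1.52 to 1.64). Among the genes that assemble the glycan on dolichol, ALG5 was higher, at 50.9 against 105 CPM (2.05-fold, 1.93 to 2.18), and DPAGT1, which starts it, was at 30.8 against 41.3 CPM (1.34-fold, 1.23 to 1.46). ALG1, which adds the first mannose, had the lowest ratio of this list, at 15.7 against 8.51 CPM (1.84-fold lower, 1.58 to 2.16). ALG10B, ALG6, ALG10, DOLK and ALG8, of the same list, lay at 0.613-fold to 0.681-fold. NUS1, ALG2 and PMM2, also of this list, lay at 1.62-fold to 1.68-fold. Of 28 measured genes of this list 4 were higher (14.3%, against 7.22% of all genes) and 24 neither. Of the 28 ratios 18 were above 0, as were 57.4% of those of all genes. The median log2 ratio of the 28 was 0.25, where that of all genes was 0.09. ALG5 was no longer higher with library totals (log2 ratio 0.69), in the deposited scaling (0.95) or with a pseudocount of 5 CPM (0.97). With library totals 3 of the 65 other genes, UBL4A, ALG1 and ALG10B, were lower, where 10.3% of all genes were.

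**Figure D5:**
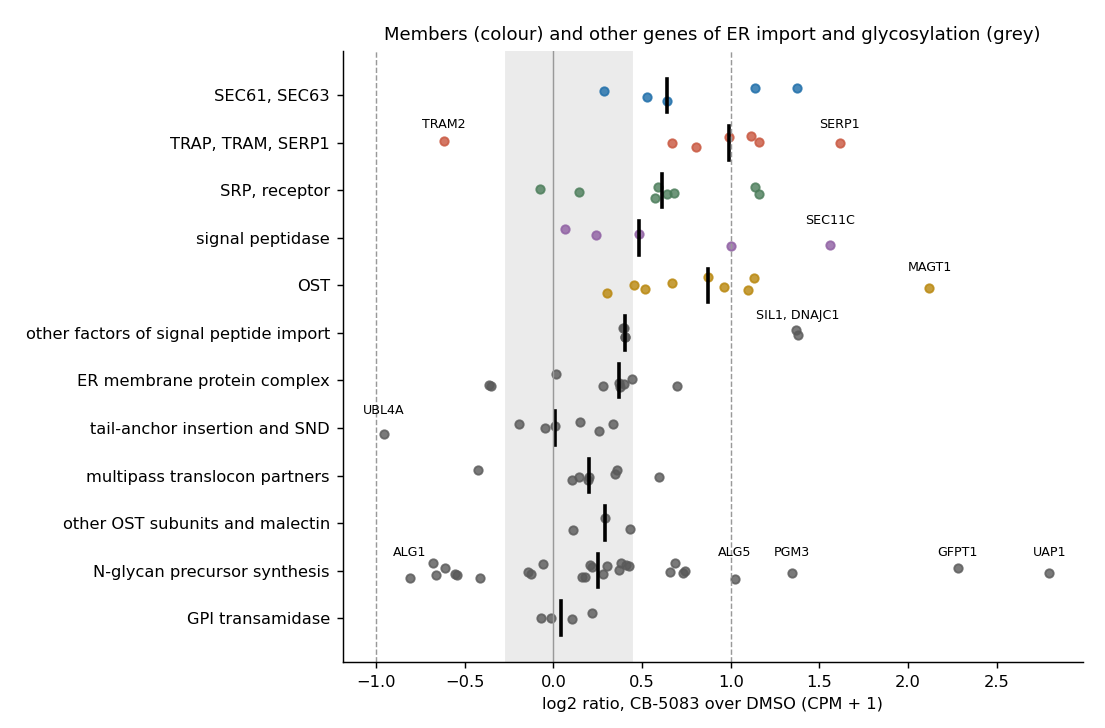
Log2 ratio of CB-5083 over DMSO (CPM + 1) of each measured member (colour, by complex) and of other genes of ER import and glycosylation (grey, by list), where black bars are medians, dashed lines the 2-fold thresholds and the grey band the middle quartiles of all genes. The medians of the 5 complexes lie between 0.48 and 0.99 and those of the other lists between 0.01 and 0.40.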

How the data were processed

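Both HCT116 libraries were stranded mRNA libraries, per the labels' protocols. RSEM 1.2.0 and hg19 appear in the submitters' processing notes; no aligner is given in the sources used here. Per gene, the authors deposited a signal: estimated counts scaled in each library to an upper quartile near 1000, as the values show (999.73 and 999.89). Dividing by the smallest step, 1.079 and 1.175, gave back estimated counts, of which 55.3% and 56.0% of those above 0 were whole within 0.02; RSEM estimates need not be. The design had foreseen this case. 1 row without a value was left out of 21116.

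CPM used TMM factors of 1.1258 and 0.8883 (trims of 30% and 5%), a pseudocount of 1 CPM and a minimum of 5 CPM. Estimated counts set the depth, and a value of 0 allows up to 3 counts, 0.0910 CPM (DMSO) or 0.106 CPM (CB-5083). Intervals are 95% exact (Clopper-Pearson). TPM used mean lengths of GENCODE 29 transcripts paired by RefSeq accession, for 16305 genes and all 35 members. Coordinates of genes are those of the table, with starts counted from 1.

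The members and lists were chosen with earlier results of these data known. The genes named were all 35 members, in each other list the 3 with the largest log2 ratio in size and any called, HSPA5 and VCP. SEC62, GNPNAT1, DPAGT1, ALG1, ALG2, ALG6, ALG8, ALG10, ALG10B, DOLK, NUS1 and PMM2 were picked after their values were seen. So were the MAGT1 and SRP9 promoters to print. The protein comparison of paralogs planned was not run. The scripts were tested on simulated data. Tools were scipy 1.17.1, numpy 2.4.6 and pandas 2.3.3 under Python 3.11.15, with figures by matplotlib 3.10.9.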

Additional observations from a re-analysis of the deposited data

How the results depend on the processing

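Over 9 alternatives to scaling, pseudocount, filter and threshold, run 1 at a time, no called ratio changed sign. The alternative with the deposited scaling also left out the pseudocount, so it differed in both. With library totals the number of higher members went from 11 to 4 (11.8%, against 3.86% of all genes). It went from 2 to 1 in the SEC61 group, from 3 to 1 in the TRAP, TRAM and SERP1 group, from 2 to 0 in SRP and receptor and from 3 to 1 in OST. The medians, in the same order, became 0.33 for all members, 0.30, 0.65, 0.27 and 0.53, with 0.14 for signal peptidase, since this scaling shifts every ratio down. Of the other pathway genes 3 were then lower, where 10.3% of all genes were. In the deposited scaling, without pseudocount, 1 was lower, UBL4A, where 7.58% of all genes were. Higher other genes went from 6 to 5 with library totals and in the deposited scaling, where ALG5 lost its call, and to 4 with a pseudocount of 5 CPM, where SIL1 and ALG5 did. Of all genes 3.86%, 6.68% and 5.43% were higher with these settings. With median-of-ratios scaling 13 members were higher (38.2%, against 7.45% of all genes), since SSR3 and SPCS2 gained a call. That made 4 in the TRAP, TRAM and SERP1 group and 2 in signal peptidase. With a pseudocount of 0.5 CPM 12 members were higher (35.3%, against 7.54% of all genes), 2 of them in signal peptidase. Without the filter the median of OST, TUSC3 included, was 0.77. A threshold of 1.5-fold gave 22 higher members (64.7%, against 17.4% of all genes) and 1 lower, TRAM2 (12.5% of all genes). These were 6 higher and 1 lower in the TRAP group, with 5 higher in SRP and receptor, 2 in signal peptidase and 6 in OST. Of the 65 other genes 12 were higher and 5 lower, near or below those shares of all genes. At 3-fold 2 members were higher (5.88%, against 2.57% of all genes), 1 in the TRAP group, 1 in OST and 0 in the SEC61 group, SRP and signal peptidase. Of the 65 other genes 2 were. Each value rests on 1 library per treatment, and the variation between libraries was not measured. Depth limits TUSC3, with under 10 counts in each library. No paired analysis was possible because each treatment is 1 library.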

Other observations

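Across the 34 measured members, the log2 ratio of CB-5083 over DMSO went weakly with transcript length (Spearman's rho 0.37, Pearson's r 0.25, n = 34 genes of the same 2 libraries) and hardly with the DMSO level in CPM (rho 0.07, r 0.10). The 11 higher members had a median transcript of 3171 bases (1077 to 9669) and the other 23 one of 2128 bases (460.5 to 6908). Genes are not independent replicates, and these values describe the 2 libraries. The part of transcript length in the ratios was not tested.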
